A study of Homo sapiens with 24 samples.

Results

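LAMB3 was knocked down with an siRNA in 2 established head and neck squamous cell carcinoma lines, FaDu and SAS, and the RNA was compared with that of the same line given a control siRNA. The members are the arrays that hold si-LAMB3 RNA, 2 of the 24 arrays of the series, chosen by their labels. Each array held both samples of 1 line. The RNA of cells transfected with si-LAMB3 carried the dye Cy5 and the RNA of cells transfected with control siRNA carried Cy3. The dyes were not swapped, so a probe that favors 1 dye would give the same error in both lines. Both transfections used Lipofectamine RNAiMAX. The siRNA sequence, its dose and the time of harvest are not given in the sources used here, and the array labels do not say how many cultures were pooled. There was 1 array for each line, so a single line has no replicate check, and n = 2 lines stands behind each statement on both. The other 22 arrays of the series hold other treatments (miRNAs, other siRNAs, wogonin, genistein and CXCL10) in head and neck, prostate and renal cancer lines, and they served as background.

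LAMB3 encodes the beta3 chain of laminin-332, a trimer that also holds the alpha3 chain of LAMA3. Laminin-332 is secreted into the basement membrane under squamous epithelium, where basal cells hold on to it through integrin alpha6beta4 in hemidesmosomes and through integrin alpha3beta1 in focal contacts. It is known in squamous carcinoma as a product of cells at the invading edge and as a substrate for their migration.

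The values are log2 ratios of si-LAMB3 over control siRNA, so that -1 is a fall to 50% and 1 a doubling. The error given in brackets after a log2 ratio is that of the scanner software's model for 1 array, with a median of 0.214 in FaDu and 0.217 in SAS. It holds no variation between cultures. Of 13977 genes tested, 12596 had a probe well above background in all 4 channels (both dyes in both lines). The labelled cell type was checked by 11 squamous markers, KRT5, KRT14, TP63 and SFN among them, and each was well above background in every channel. Of 8 prostate markers 5 were tested and 2 were well above background in every channel. Of 8 renal markers 4 were tested and 3 were. By presence alone the check does not set these lines apart from the other line types of the series. Of 8 fibroblast markers, only COL1A1 was tested, and it was at 0.50 in FaDu and 1.25 in SAS, where its control RNA was not well above background. Of 6 leukocyte markers 3 were tested, and CD14 and CD68 were measured in every channel. PTPRC, whose control RNA in FaDu was not well above background, was at 1.54 in FaDu and 0.31 in SAS. CD14 was at 0.35 in FaDu and -0.77 in SAS, and CD68 at -0.18 and 0.69. The levels do not tell fewer cells of a type from less RNA in each cell. No spot was saturated on either array.

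LAMB3 was lower after si-LAMB3 in both lines, and by more in FaDu. Its probe lies at chr1:209788356-209788415 of hg19 on the minus strand by the array's annotation, and was printed as 2 spots on each array. The log2 ratio was -2.50 (error 0.309) in FaDu, which left 17.6% of the control level. In SAS it was -0.89 (error 0.22), which left 54.1%. The 2 spots of the probe had an SD of 0.0318 in FaDu and 0.0244 in SAS. The control level was alike, with a log2 Cy3 signal of 14.3 in FaDu and 14.4 in SAS, and the log2 Cy5 signal was 11.79 in FaDu and 13.54 in SAS.

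On the 22 arrays of other treatments the log2 ratio of LAMB3 ran from -2.11 to 4.21, with a median of -0.12. None of them was as low as si-LAMB3 in FaDu, whereas 2 were as low as si-LAMB3 in SAS, miR-24 in PC3 at -2.11 and wogonin in FaDu at -1.002. The fit of limma over the 16 arrays of this design, which takes the spread from arrays of the same treatment, gave a mean of -1.69 (SE 0.90, adjusted p = 0.277), so LAMB3 did not pass. The call changed with 1 array. Without miR-145 in LNCap, the array with LAMB3 at 4.21, the adjusted p by limma was 0.0441. This setting, also given for other genes below, was chosen after seeing the data. LAMB3 did not pass against its mean over other treatments (limma adjusted p = 0.275) or with another background correction (0.19). The difference between the lines was -1.62 (SE 1.82, adjusted p = 0.945 by limma) and was not larger than the spread. That spread is the one between different cell lines given the same other treatment, and no line has replicates. Here and below, a difference with no call thus does not mean that FaDu and SAS were alike. In FaDu 22 genes (0.157%) had a lower log2 ratio than LAMB3, and in SAS 1187 genes (8.49%). In both lines 12 genes lay below LAMB3. CLDN1, GOLPH3L, NKAP, RTN3, SEC23A and SERINC2 were those without a dim channel. RTN3 (-2.53 in FaDu and -1.77 in SAS) and SERINC2 (-2.54 and -1.61) were named after their values were seen.

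**Figure D1:**
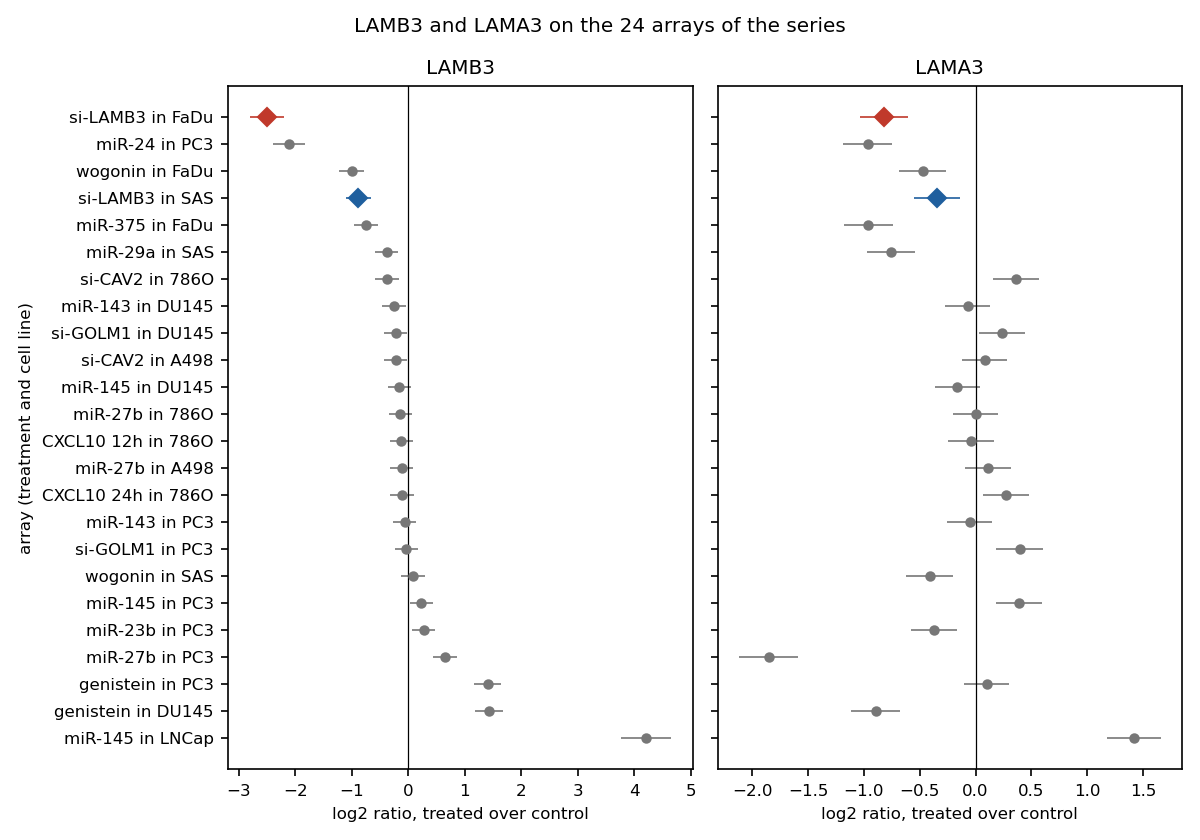
Log2 ratio of the brightest probe of LAMB3 and LAMA3 on the 24 arrays of the series, ordered by LAMB3. Red and blue diamonds are si-LAMB3 in FaDu and SAS, grey points are other treatments, and bars are the scanner software's error. For LAMB3 the FaDu diamond at -2.50 is the lowest of all and the SAS diamond at -0.89 lies to the right of miR-24 in PC3 and wogonin in FaDu.

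LAMA3, the alpha3 chain of the same trimer, was at -0.82 (error 0.218) in FaDu and -0.35 (error 0.207) in SAS. It did not pass by limma (mean -0.58, SE 0.353, adjusted p = 0.339), and its second, dimmer probe gave -1.56 and -1.21. On the arrays of other treatments in these lines LAMA3 was at -0.96 with miR-375 in FaDu, -0.76 with miR-29a in SAS, and -0.47 and -0.41 with wogonin in FaDu and SAS. By both probes its value was lower in FaDu than in SAS, as for LAMB3, and the difference between the lines was not called (-0.47, SE 0.731, adjusted p = 0.973).

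Of the 8 receptor and hemidesmosome genes, 3 were below -0.5 in both lines (all genes, 8.23%) and none above 0.5. CD151, a tetraspanin bound to the laminin-binding integrins, fell, with -0.71 in FaDu and -0.51 in SAS (mean -0.61, SE 0.148, limma adjusted p = 0.0439), but not when set against its mean over other treatments (adjusted p = 0.0937). The chains of integrin alpha3beta1 lay below control with no call. ITGA3 was at -0.65 and -1.51 (adjusted p = 0.0759) and ITGB1 at -0.97 and -0.59 (adjusted p = 0.0835). Of the hemidesmosome genes, ITGB4, DST and COL17A1 had lower values in SAS than in FaDu, and PLEC and ITGA6 did not differ by more than 0.25. ITGB4, the beta4 chain, was at -0.05 in FaDu and -1.94 in SAS. DST, which encodes the plakin that links keratin to integrin beta4, was at -0.04 and -2.35, and its 3 probes ran from -0.45 to -0.04 in FaDu and from -2.44 to -0.84 in SAS. COL17A1 was at -0.20 and -0.80. The difference between the lines was not called for any of the 8 (lowest adjusted p = 0.332, for DST). Wogonin in SAS gave -1.59 for DST and -0.91 for ITGB4. ITGA6 was at -0.37 and -0.44 and PLEC at -0.32 and -0.07, with another probe of PLEC at 0.27 and 0.28.

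Among the other laminin chains, LAMC1, the gamma1 chain of most other laminins, fell, with -0.84 in FaDu and -1.22 in SAS (mean -1.03, SE 0.217, limma adjusted p = 0.0295). LAMC3, a gamma chain with low signal here, rose (0.73 and 1.47, adjusted p = 0.0414). Its control RNA was not well above background, and it was at least 1.63-fold higher in SAS. In FaDu the value (error 0.451) is the measured ratio with no bound. LAMC3 was at 0.84 and 1.56 with wogonin in FaDu and SAS, 1.23 with miR-375 in FaDu and 0.63 with miR-29a in SAS. With another background correction limma did not call it (adjusted p = 0.597). LAMA2 was at 0.33 in FaDu and 2.08 (error 0.372) in SAS, where its control RNA was not well above background. LAMC1 was at -1.71 with miR-29a in SAS and at -1.12 with miR-375 in FaDu. LAMA5 was at -0.01 and 0.0028, with another probe at 0.29 and -1.04. LAMB1 was at 0.03 in FaDu and -1.03 in SAS, where its other probe gave 0.09, and LAMB2 was at -0.23 and -0.48. Of the other integrins, ITGAV fell (-1.17 in both lines, adjusted p = 0.0411) and ITGB6, its partner in an epithelial receptor for latent TGF-beta, rose (1.11 and 1.19, adjusted p = 0.00256).

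Over all genes, 1151 of 13977 were below -0.5 in both lines (8.23%) and 1001 were above 0.5 in both (7.16%). The genes lower in both make up 58% of those lower in FaDu and 42.4% of those lower in SAS. The genes higher in both make up 50.3% of those higher in FaDu and 36.6% of those higher in SAS. Past 1.0 there were 250 genes lower (1.79%) and 237 higher (1.7%) in both lines. In SAS 6.6% of the genes lay below -1.0 and 6.4% above 1.0, and in FaDu 3.98% and 4.34%. The difference between the lines was called by limma for 1 gene (0.00715%), VSNL1. Across genes the values in FaDu and SAS correlated with a Pearson r of 0.485 and a Spearman rho of 0.509. Genes are not independent replicates and these values describe 2 arrays of the same dye orientation and slide. Over probes r was 0.476, and with the 14 arrays of other treatments on this design it was between -0.0114 and 0.377.

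By limma 665 genes fell (4.76%) and 486 rose (3.48%), of which 603 and 425 were also past 0.5 in both lines. The test takes its spread from the treatments with several arrays, si-LAMB3 among them. With the 2 si-LAMB3 arrays alone limma called 0 probes, against 2230 lower and 2507 higher at an unadjusted p under 0.05. Of the genes lower in both lines 1081 were well above background in all 4 channels, but of those higher in both only 642. On both arrays more spots were well above background in Cy5 (65.6% in FaDu and 66.1% in SAS) than in Cy3 (58.4% and 59.3%), and the part of this in the result was not tested. With another background correction (normexp and loess) 674 genes were lower and 378 higher in both lines.

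**Figure D2:**
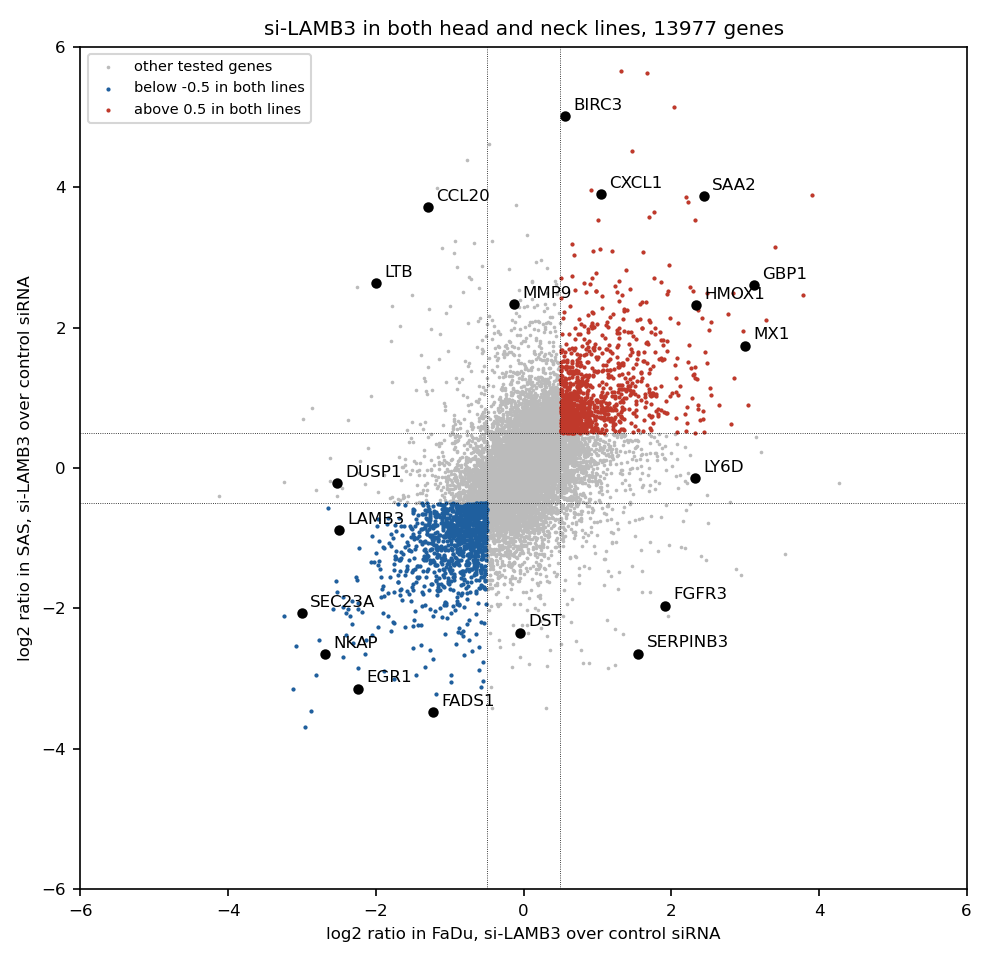
Log2 ratio of si-LAMB3 over control siRNA in FaDu (x) and SAS (y) for 13977 genes, 1 point each, with dotted lines at -0.5 and 0.5. Blue points are the 1151 genes below -0.5 in both lines, red points the 1001 genes above 0.5 in both, and named genes are black. CCL20 and LTB lie at the upper left, lower in FaDu and higher in SAS, and FGFR3 and SERPINB3 at the lower right.

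Ranked by the smaller of the 2 absolute values, among genes with no dim channel, the 10 genes lowest in both lines were NKAP, CLDN1, GOLPH3L, GNG10, EGR1, PPIP5K1, CPD, RAB7A, SEC23A and PPT1, with log2 ratios from -3.15 to -2.06. By limma 8 of the 10 fell. NKAP, a nuclear factor of NF-kB and Notch signaling, was at -2.69 in FaDu and -2.65 in SAS (mean -2.67, SE 0.136, adjusted p = 0.000467), the lowest adjusted p of all probes. GOLPH3L, a Golgi protein, was at -2.76 and -2.46. GNG10, a G protein gamma subunit, was at -2.41 and -2.38, and its second probe gave -2.04 and -1.75. RAB7A, the GTPase of late endosomes, was at -2.36 and -2.11. SEC23A, a subunit of the COPII coat, was at -3.002 and -2.07, and PPT1, a lysosomal thioesterase, at -2.41 and -2.06. CPD, a carboxypeptidase of the trans-Golgi network, was at -2.14 and -2.45. PPIP5K1, an inositol pyrophosphate kinase, was at -2.24 and -2.85, but its other probe gave -0.87 and -0.19.

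These falls were larger than on any array of another treatment for 9 of the 10 genes in both lines. The 10 genes were picked for their falls on these same 2 arrays, so neither this nor their limma calls is separate support. NKAP ran from -0.53 to 0.55 on those 14 arrays and RAB7A from -0.73 to 0.56. CLDN1, a tight junction claudin, was at -3.08 in FaDu and -2.53 in SAS, against -3.004 to 5.96 on the other arrays, and did not pass (adjusted p = 0.136, and 0.0143 without miR-145 in LNCap). EGR1, an immediate early transcription factor, was at -2.24 and -3.15 with no call (adjusted p = 0.146, and 0.0118 without that array). Of the 1151 genes lower in both lines, 263 lay below all 14 arrays in both.

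By the same ranking the 10 genes highest in both lines were GBP1, SAA2, SAA1, HMOX1, SAMD9L, CHAC1, OASL, TRIM16, ETV7 and MX1. By limma 6 of the 10 rose, and only TRIM16 lay above all arrays of other treatments in both lines. These genes too were picked by their values on the 2 arrays. GBP1, an interferon-induced GTPase, was at 3.12 in FaDu and 2.61 in SAS (mean 2.87, SE 0.54, adjusted p = 0.0213), and SAMD9L, an interferon-induced antiviral factor, at 2.09 and 2.06 (adjusted p = 0.00281). OASL was at 1.94 and 2.49 (adjusted p = 0.0131). The acute phase genes SAA2 (2.44 and 3.88) and SAA1 (2.32 and 3.53) did not pass, and they are near-identical copies whose probes may bind both transcripts. HMOX1, the heme oxygenase of the oxidative stress response, was at 2.33 and 2.32 (adjusted p = 0.0377). CHAC1, a glutathione-degrading enzyme of the ATF4 response, was at 1.97 and 2.89 (adjusted p = 0.0349), and TRIM16, an E3 ligase, at 1.86 and 1.83 (adjusted p = 0.0295). None of the 6 passed when each probe was set against its mean over other treatments, where the adjusted p was 0.0638 to 0.218.

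**Figure D3:**
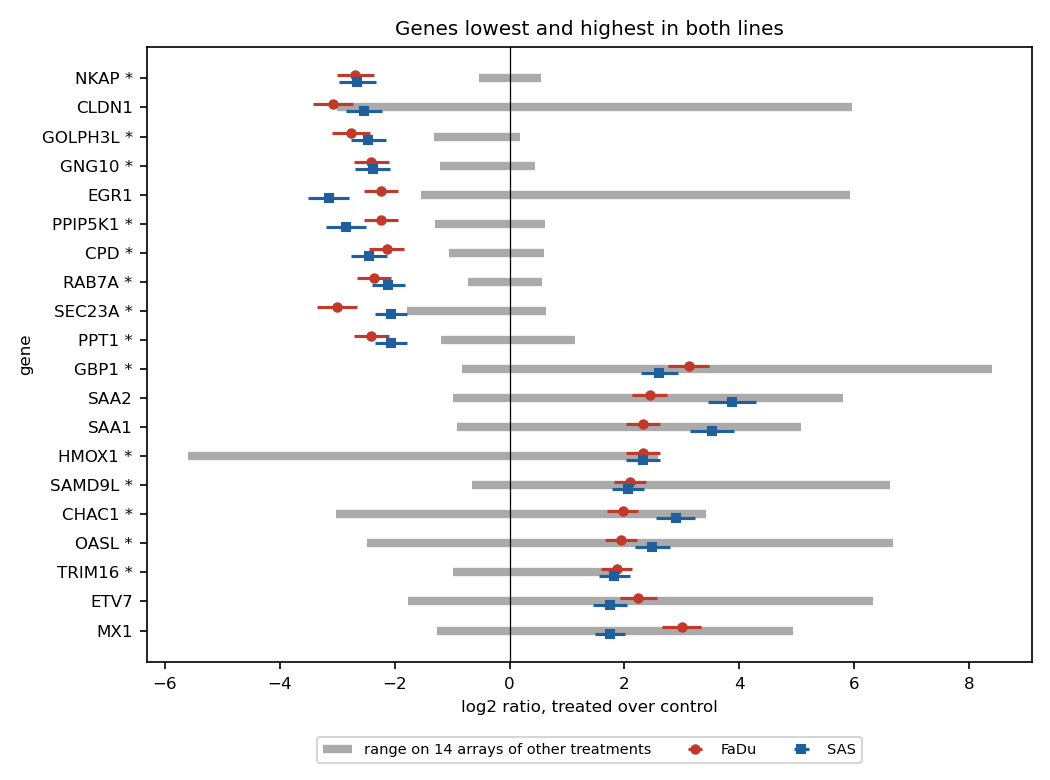
Log2 ratio of the 10 genes lowest and the 10 highest in both lines, with FaDu in red and SAS in blue and the scanner software's error as bars. Grey bars span the 14 arrays of other treatments on the same design, and an asterisk marks genes that limma called. The points of 9 of the 10 lowest genes lie left of the grey bar in both lines, and those of 9 of the 10 highest genes do not clear it.

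Interferon-response genes were the list that stood highest in both lines together. Of 38 listed, 34 were tested, and 19 were above 0.5 in both lines (all genes, 7.16%) and none below -0.5 in both. The median log2 ratio was 1.40 in FaDu and 0.81 in SAS, against 0.02 in either line over all genes. In FaDu 30 of 34 were above 0.5 (all genes, 14.2%), and in SAS 20 of 34 (all genes, 19.6%). The value in FaDu was above that in SAS for 27 of the 34 genes (all genes, 49.75%), and the difference was called by limma for none of them.

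By limma 9 of the 34 rose (all genes, 3.48%), and 5 of these had no dim channel. IFIT3, which joins the IFIT complex on foreign RNA, was at 2.31 in FaDu and 1.33 in SAS (adjusted p = 0.0292), IFIT1 at 1.86 and 0.82 (adjusted p = 0.0405) and IFI44 at 0.94 and 2.21 (adjusted p = 0.0387). The other 2 were SAMD9L and OASL. IFI44L, OAS1, OAS2 and RSAD2 rose too, but their control RNA in SAS was not well above background. For RSAD2 and IFI44L the fold in SAS is a bound, the treated signal over the lowest control signal that was well above background. Where the probe's own control signal was higher than that, the fold is the measured ratio and not a bound. RSAD2, the antiviral enzyme viperin, was at 2.23 in FaDu and at least 6.82-fold higher in SAS. IFI44L was at 3.40 in FaDu and at least 3.75-fold higher in SAS. By measured ratios, OAS2 was at 2.32 in FaDu and 1.44 (error 0.33) in SAS, and OAS1 at 2.43 and 0.81 (error 0.344). MX1, a dynamin-like antiviral GTPase, was at 2.995 and 1.74 (adjusted p = 0.0766, and 0.0084 without miR-145 in LNCap). The cytosolic RNA sensors RIGI (1.68 and 1.495) and IFIH1 (1.40 and 1.22) lay above control in both lines with no call, and another probe of RIGI gave 0.44 and -0.11. IRF9 (2.06 and 0.48), IFI6 (1.99 and 0.21) and BST2 (1.91 and 0.12) were high in FaDu and within 0.5 of control in SAS. STAT2 (0.09 and -0.66), DDX60 (-0.16 and 0.47) and MX2 (-0.21 and -0.65) were not above 0.5 in either line, but another probe of MX2 gave 2.57 and 1.09.

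Interferon-response genes also moved on arrays of other treatments. Their median was 4.32, 4.11 and 4.66 with miR-145 in PC3, DU145 and LNCap, 0.95 with miR-375 in FaDu and 0.81 with miR-29a in SAS. It was 0.08 and -0.12 with the siRNA against CAV2 in A498 and 786O. With miR-23b, miR-24 and miR-27b in PC3 it was 0.03, -0.02 and 0.15. It was -0.56 and -0.85 with wogonin, a flavone, in FaDu and SAS, and -0.51 and -0.46 with genistein in PC3 and DU145. None of the 34 genes lay above all 14 arrays in both lines. Of all 13977 genes, 110 were above 0.5 and above all 14 arrays in both lines. So 0 of 34 is near the share of all genes. None of the 9 calls was kept when each probe was set against its mean over other treatments. On that scale the median was 0.37 in FaDu and -0.14 in SAS. Without miR-145 in LNCap 13 of the 34 rose, 8 of them among the 9. Whether the transfection itself has a part in these values was not tested.

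Promoters of this list are shown since 19 of its 34 tested members were above 0.5 in both lines. In the RefSeq table (GRCh38.p14, 250 bases before to 50 after a start), 27 of the 34 tested genes had a promoter. The letters GAAANNGAA are a core of the interferon-stimulated response element (ISRE). On either strand they were found for 19 of the 27 (70.4%), against 8.57% of 11030 tested genes and 9.86% of 27305 genes with a promoter. Of the 15 with a promoter that were above 0.5 in both lines, 9 held them (60%). A match is a description and not a binding site, and the share describes the list as it was chosen, not a result of si-LAMB3. Capitals mark the match in the promoters of 3 genes that rose.
IFIT3 promoter, chr10:89327747-89328046, plus strand: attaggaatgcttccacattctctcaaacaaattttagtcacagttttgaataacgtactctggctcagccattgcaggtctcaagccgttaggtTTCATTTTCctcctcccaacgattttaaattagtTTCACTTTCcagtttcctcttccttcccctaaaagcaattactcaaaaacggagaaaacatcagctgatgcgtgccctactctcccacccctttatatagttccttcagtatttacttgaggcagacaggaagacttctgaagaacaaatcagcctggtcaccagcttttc
IFI44L promoter, chr1:78620198-78620497, plus strand: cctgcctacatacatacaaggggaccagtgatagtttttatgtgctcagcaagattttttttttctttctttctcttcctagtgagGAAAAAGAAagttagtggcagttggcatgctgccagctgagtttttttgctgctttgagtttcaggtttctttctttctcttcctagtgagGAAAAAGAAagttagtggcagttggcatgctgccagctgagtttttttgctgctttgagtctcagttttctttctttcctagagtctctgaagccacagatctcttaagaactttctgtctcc
RSAD2 promoter, chr2:6877527-6877826, plus strand: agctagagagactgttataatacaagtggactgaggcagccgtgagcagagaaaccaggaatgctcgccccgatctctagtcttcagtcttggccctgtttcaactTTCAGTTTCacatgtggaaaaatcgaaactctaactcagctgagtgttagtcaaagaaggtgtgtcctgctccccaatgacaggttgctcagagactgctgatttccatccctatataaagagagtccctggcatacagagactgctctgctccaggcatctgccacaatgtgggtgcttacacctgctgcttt

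Genes of NF-kB, the transcription factor of inflammatory signaling, differed most between the lines. Of 19 cytokine and feedback genes, 18 were tested. In SAS 15 of the 18 were above 1.0 (all genes, 6.4%), and in FaDu 1 was (all genes, 4.34%). The median was 2.24 in SAS and -0.47 in FaDu. For 17 of the 18 the value in SAS was above that in FaDu (all genes, 50.25%). In FaDu 13 of 18 were below 0, where the median over all genes was 0.02, and 8 were below -0.5 (all genes, 14.2%). By limma none passed for the mean of both lines or for the difference between the lines, with an adjusted p from 0.096 (CXCL1) upward for the mean. BIRC3, an inhibitor of apoptosis induced by NF-kB, was at 0.56 in FaDu and 5.01 in SAS, and the neutrophil chemokine CXCL1 at 1.05 and 3.90. These were the only members above 0.5 in both lines. CXCL2 was at -0.92 and 3.24, IL6 at -0.20 and 2.83, and CCL20, the ligand of CCR6, at -1.30 and 3.72. The negative regulators TNFAIP3 and NFKBIA were at -0.35 and 1.96 and at 0.45 and 1.51. CSF3, CXCL3, CXCL8, TNF and IL36G were not well above background in the control RNA of SAS, and were there at least 13.0-fold, 11.8-fold, 5.69-fold, 4.65-fold and 2.002-fold higher. As for the interferon list, such a fold is the measured ratio where the probe's own control signal is the higher. IL1B was at -1.51 in FaDu and -0.02 in SAS. Among the 14 arrays of other treatments the median of this list was highest with miR-145 in LNCap (2.88) and in PC3 (1.57), and was 0.56 with wogonin and 0.19 with miR-29a in SAS. With normexp the SAS median was 1.14, and in members well above background in all 4 channels it was 1.62.

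A kB-like run of letters, GGGNNTTTC on either strand, was found in the promoters of 9 of 16 tested members (56.2%). The share was 6.36% among tested genes and 5.78% among all genes with a promoter. The ISRE-like run was found for 4 of the 16 (25%), and the kB-like run for 5 of the 27 interferon-response genes (18.5%). Of the 13 members with a promoter that were above 1.0 in SAS, 8 held it (61.5%). The promoters of CCL20, BIRC3 and CXCL1 are shown, since CCL20 was lower in FaDu and higher in SAS while BIRC3 and CXCL1 were higher in both, and capitals mark the match.
CCL20 promoter, chr2:227813592-227813891, plus strand: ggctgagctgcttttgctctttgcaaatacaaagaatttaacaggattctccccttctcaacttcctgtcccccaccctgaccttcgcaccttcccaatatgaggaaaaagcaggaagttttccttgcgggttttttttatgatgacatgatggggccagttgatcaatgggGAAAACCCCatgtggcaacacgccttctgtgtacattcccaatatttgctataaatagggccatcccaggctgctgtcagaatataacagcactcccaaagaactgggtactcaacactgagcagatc
BIRC3 promoter, chr11:102317234-102317533, plus strand: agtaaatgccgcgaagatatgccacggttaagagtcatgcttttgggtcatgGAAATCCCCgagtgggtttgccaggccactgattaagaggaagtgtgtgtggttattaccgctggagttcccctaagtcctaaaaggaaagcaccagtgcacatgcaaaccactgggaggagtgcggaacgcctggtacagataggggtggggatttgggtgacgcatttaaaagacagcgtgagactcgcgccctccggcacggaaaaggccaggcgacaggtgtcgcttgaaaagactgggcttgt
CXCL1 promoter, chr4:73869143-73869442, plus strand: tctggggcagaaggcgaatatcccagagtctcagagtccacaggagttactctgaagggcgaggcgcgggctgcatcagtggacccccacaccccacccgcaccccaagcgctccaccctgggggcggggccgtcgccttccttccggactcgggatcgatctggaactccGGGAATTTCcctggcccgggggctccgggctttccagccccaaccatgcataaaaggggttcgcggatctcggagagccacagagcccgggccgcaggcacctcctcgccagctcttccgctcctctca

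**Figure D4:**
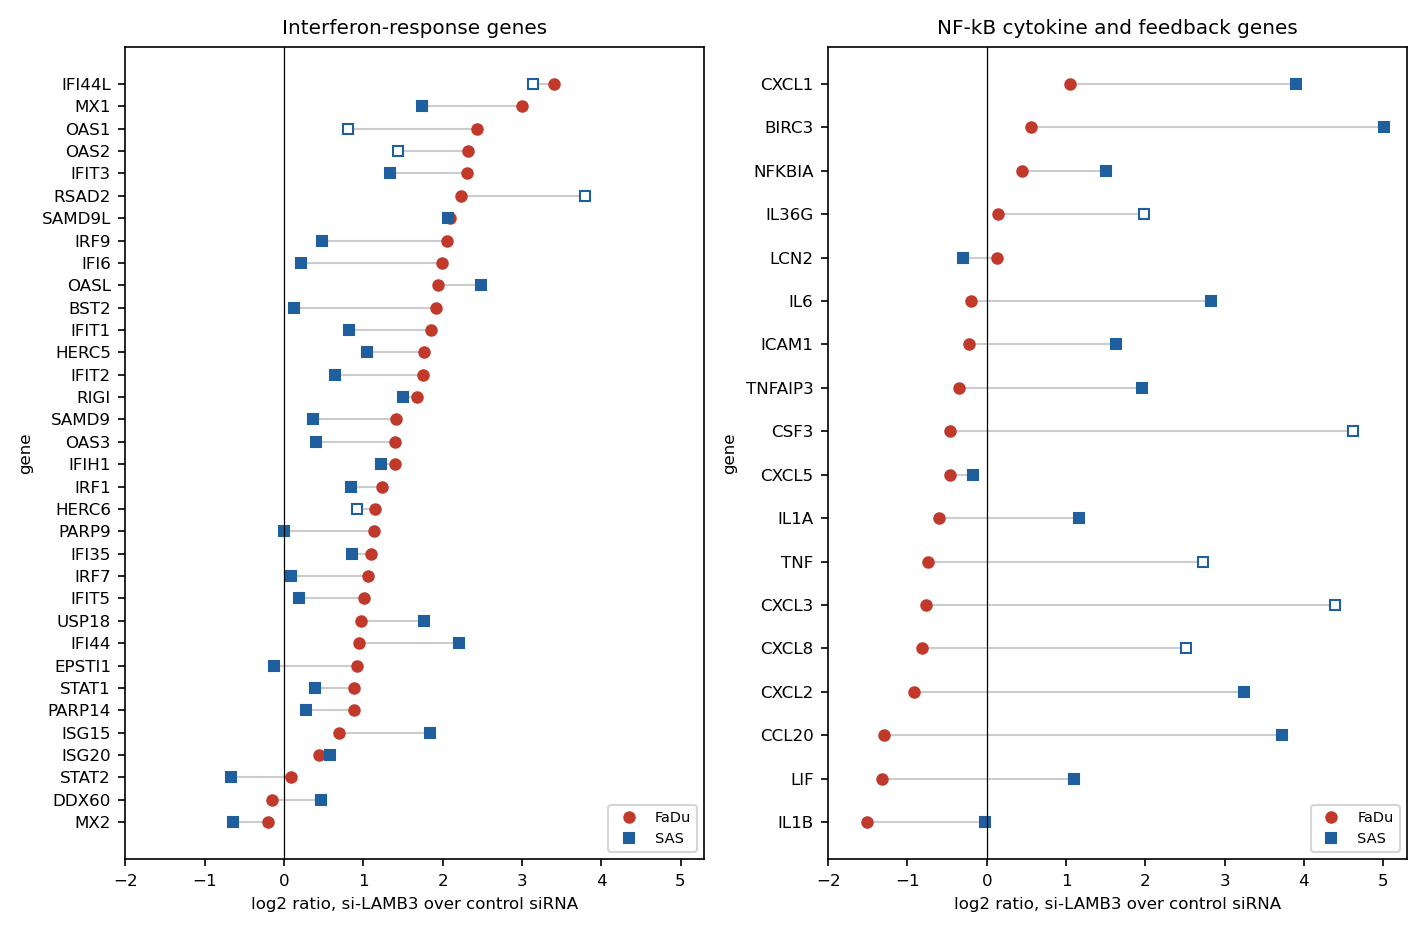
Log2 ratio of the tested interferon-response genes (34, left) and NF-kB cytokine and feedback genes (18, right), with FaDu as red circles and SAS as blue squares joined for each gene. Open symbols had 1 channel not well above background. On the left both lines lie mostly above 0, and on the right 15 SAS squares lie above 1.0 and most FaDu circles below 0.

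Genes past 0.5 in opposite directions were few. There were 169 higher in FaDu and lower in SAS (1.21%), and 129 lower in FaDu and higher in SAS (0.923%). Ranked by the smaller of the 2 absolute values, among genes with no dim channel, the first 5 of the second kind were LTB (-1.996 and 2.63), IGFL1 (-1.78 and 2.31), IL24 (-1.51 and 2.47), CCL20 and MAOA (-1.29 and 1.44), of which LTB and IL24 encode cytokines. LTB was also at 3.38 with miR-375 in FaDu and -2.29 with wogonin in SAS. The first 5 of the other kind were FGFR3 (1.91 and -1.96), a fibroblast growth factor receptor, TNNT3 (1.71 and -1.77), the squamous serpin SERPINB3 (1.55 and -2.65), HR (1.46 and -1.39) and BLNK (1.30 and -1.48). Wogonin in SAS gave -2.70 for FGFR3 and -3.40 for SERPINB3. The difference between the lines passed for none of these 10 (lowest limma adjusted p = 0.223, for BLNK).

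Past 1.0 in 1 line and within 0.25 of control in the other were 64 lower and 90 higher genes in FaDu (0.458% and 0.644%), and 168 lower and 186 higher genes in SAS (1.2% and 1.33%). In FaDu only, the highest were LY6D (2.32), the psoriasin gene S100A7 (2.06), IFI6, BST2 and AKR1B10 (1.88), an aldo-keto reductase. The lowest there were RIPOR3 (-2.62), the MAP kinase phosphatase DUSP1 (-2.52), CDH11 (-2.22), CENPV (-1.89) and the histone gene H2AC25 (-1.68). DUSP1 was also at -2.20 with wogonin in FaDu. In SAS only, the highest were ATF3 (3.32), ZBED2 (2.97), IL6, the gelatinase MMP9 (2.34) and NFKBIE (2.33), an inhibitor of NF-kB. Not all probes of ATF3 gave this, and its 4 probes ran from 0.32 to 3.32 in SAS. The lowest in SAS only were NANOS1 (-2.83), PITPNM3 (-2.79), SLC2A14 (-2.51), SPTLC3 (-2.35) and DST. NANOS1 was also at -2.32 with miR-29a and -1.79 with wogonin in SAS. For MMP9 the difference was -2.47 (SE 0.271) with a limma adjusted p of 0.0988.

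Basal keratinocyte genes lay apart in the lines. The median of the 12 genes was 0.36 in FaDu and -0.65 in SAS, with 8 below -0.5 in SAS (all genes, 19.4%) and 1 in FaDu (all genes, 14.2%). KRT15 was at 1.19 and -1.54, the desmosomal cadherin DSC3 at 0.75 and -1.63, and TP63, the transcription factor of basal cells, at -0.05 and -1.45. S100A2 fell in both lines (-1.67 and -1.81, limma adjusted p = 0.0232), also against its mean over other treatments (adjusted p = 0.0341). The median of this list was -1.14 with miR-375 in FaDu, -0.52 with miR-29a in SAS and -0.44 with wogonin in SAS. Of 11 desmosome and adherens junction genes, 7 were below -0.5 in SAS (all genes, 19.4%) and none in FaDu (all genes, 14.2%), and none passed by limma. They included PERP (-0.32 and -1.54) and CTNND1 (-0.29 and -1.39, with another probe at 0.14 in SAS). Of 23 keratinocyte differentiation genes tested, 12 were above 0.5 in FaDu (all genes, 14.2%) and 8 in SAS (all genes, 19.6%), and 5 were in both lines (all genes, 7.16%). Below -0.5 were 2 in FaDu (all genes, 14.2%) and 5 in SAS (all genes, 19.4%), shares below or near those of all genes. TGM1, the transglutaminase of the cornified envelope, was at 1.36 and 1.12 (adjusted p = 0.193), and ZNF750, a regulator of late differentiation, at 2.13 and -1.13. GRHL3 (1.61 in FaDu) and SPRR3 rose by limma, each with a channel not well above background.

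Among epithelial and mesenchymal genes, 5 of 20 tested were below -0.5 in both lines (all genes, 8.23%) and 2 above 0.5 (all genes, 7.16%). ESRP1, the epithelial splicing regulator, rose (1.23 and 1.41, limma adjusted p = 0.00625, and 0.0085 against the mean over other treatments). The largest fall in FaDu was that of the epithelial gene CLDN1 (-3.08 and -2.53), with no call. VIM (-1.13 and -0.51), SNAI2 (-0.52 and -0.86), COL5A1 (-0.65 and -0.95) and COL5A2 (-1.18 and -3.23) were lower with no call. Another probe of COL5A1 gave 1.44 and 0.21. The mesenchymal gene COL1A1 was higher in both lines (0.50 and 1.25) with no call, so the list did not move 1 way. CDH1 was at 0.37 and 0.35. Among proteases and inhibitors, TIMP2, an inhibitor of matrix metalloproteinases, fell (-1.43 and -1.39, adjusted p = 0.0041). TIMP2 was as low with wogonin in SAS (-1.503) and lower with miR-375 in FaDu (-2.97). MMP1 was at 1.02 and 1.71 (adjusted p = 0.498). Of 23 focal adhesion genes 1 fell by limma, a share near that of all genes (4.76%), and none rose. It was VCL (-0.61 and -0.68, adjusted p = 0.033).

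Immediate early genes were mixed. FOS (-1.16 and -1.03), JUN (-1.56 and -1.09) and EGR1 were lower and KLF4 (1.24 and 1.03) higher in both lines, and none of the 15 tested passed. FOSL1 (0.09 and 2.08) and KLF6 (-1.33 and 1.25) differed between the lines in value, with no call. Of 24 ATF4 stress genes tested, 6 were above 0.5 in both lines (all genes, 7.16%). The 2 below -0.5 in both, the amino acid transporter chains SLC7A5 and SLC3A2, are a share near that of all genes (8.23%). CHAC1 and NUPR1 (1.72 and 1.41, adjusted p = 0.039) rose. TRIB3 was at 0.82 and 1.83, PSAT1 at 1.01 and 1.39 and DDIT3 at 0.41 and 2.01. Of 20 chaperone genes of the endoplasmic reticulum, 3 were below -0.5 in both lines (all genes, 8.23%), and PDIA4 (-0.75 and -0.97, adjusted p = 0.0295) and CANX (-0.44 and -0.70) fell.

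Of 26 cholesterol and fatty acid synthesis genes, 10 were below -0.5 in SAS (all genes, 19.4%) and 4 in FaDu (all genes, 14.2%). FADS1, a fatty acid desaturase, fell to -1.23 and -3.48 (limma adjusted p = 0.0242), and DHCR7, the last enzyme of cholesterol synthesis, fell to -0.89 and -0.92 (adjusted p = 0.0249). Of 32 S phase genes 1 was below -0.5 and 3 above 0.5 in both lines, shares below or near those of all genes (8.23% and 7.16%). GINS1, a subunit of the replicative helicase, fell (-1.57 and -1.40, adjusted p = 0.0238) and MCM6 rose (0.82 and 0.51, adjusted p = 0.0469). Of 35 genes of G2 and mitosis, only CCNA2 (0.70 and 0.68) and BIRC5 (0.65 and 0.70) were above 0.5 in both lines (all genes, 7.16%). Only HMMR (-0.60 and -1.10) was below -0.5 in both (all genes, 8.23%), and none of the 35 was called. MKI67 was at 0.18 and 0.04. Of 13 replication-dependent histone genes 4 were below -0.5 in both lines (all genes, 8.23%) and none was called, and H1-2 was at -1.74 and -0.81. Of 21 p53 targets tested, 1 was below -0.5 and 3 above 0.5 in both lines (all genes, 8.23% and 7.16%). The lower gene was BTG2, which fell (-1.18 and -1.59, limma adjusted p = 0.0156). CDKN1A (0.66 and 0.90, adjusted p = 0.445), FAS (1.59 and 1.37) and BBC3 (0.64 and 0.89) were higher with no call. EGLN3, an oxygen sensor induced by hypoxia, fell (-1.33 and -2.84, limma adjusted p = 0.0283). Of 27 glycolysis and hypoxia genes 2 were below -0.5 in both lines, a share near that of all genes (8.23%). TNRC6A, a partner of Argonaute in RNA interference, rose (1.24 and 0.998, limma adjusted p = 0.0168), whereas AGO2 was at -0.29 and 0.20. Of 12 RNA interference genes 1 was above 0.5 in both lines, a share near that of all genes (7.16%).

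Several of the called genes depended on the arrays of other treatments. Set against their mean over those arrays, ITGB6, S100A2, ESRP1, TIMP2 (adjusted p = 0.019), DHCR7 (0.037), GINS1 (0.0225) and BTG2 (0.0196) still passed by limma, and LAMC1 (0.086), ITGAV (0.065), VCL (0.0628), PDIA4 (0.384), LAMC3 (0.277), GRHL3 (0.0906), SPRR3 (0.159), FADS1 (0.0597), EGLN3 (0.056), NUPR1 (0.0904), TNRC6A (0.0597) and MCM6 (0.353) did not. Without miR-145 in LNCap the calls of CD151 (0.05), CHAC1 (0.0508), MCM6 (0.0672), CANX (0.066), LAMC3 (0.0569), OAS2 (0.0591) and GRHL3 (0.0502) were lost.

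**Figure D5:**
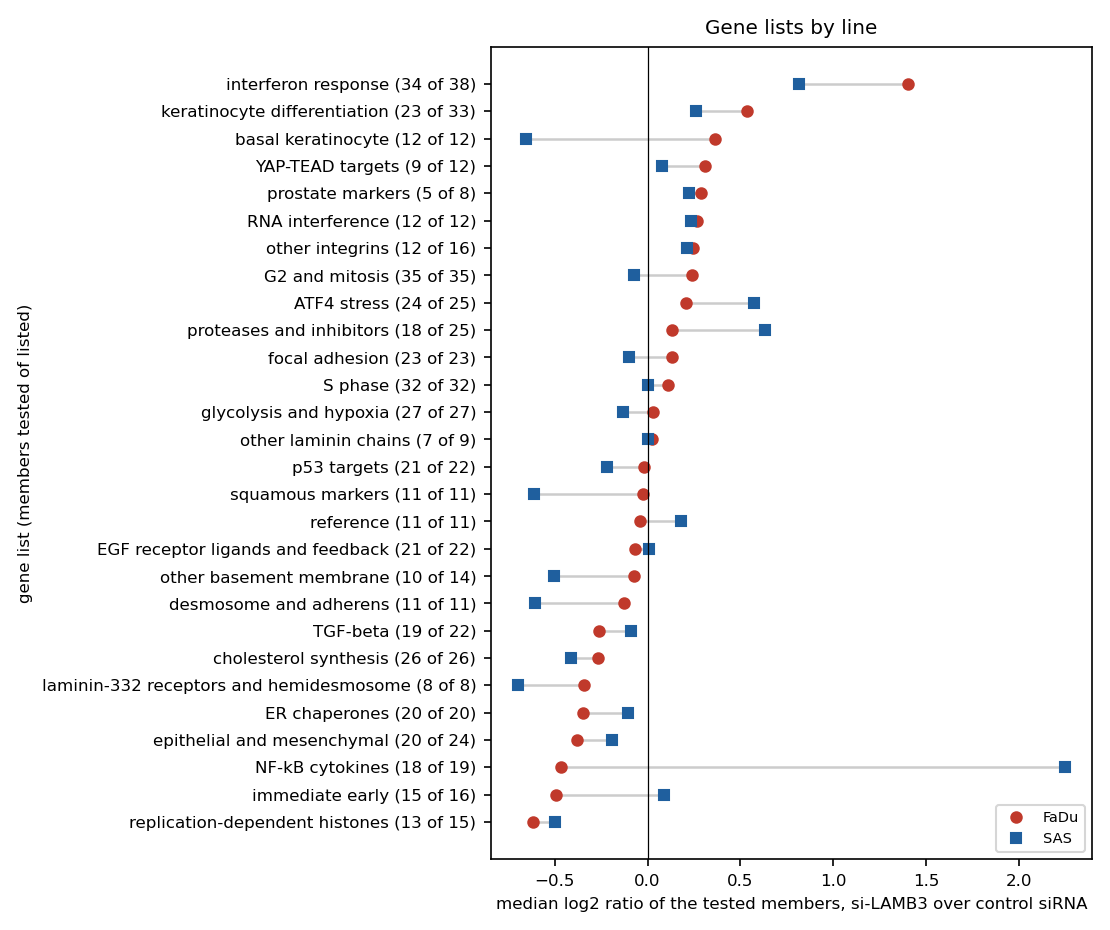
Median log2 ratio of the tested members of each gene list with at least 5 tested genes, in FaDu (red circles) and SAS (blue squares). The interferon-response list lies highest in FaDu (1.40) and the NF-kB list highest in SAS (2.24) and below 0 in FaDu (-0.47).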

How the data were processed

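RNA of FaDu and SAS cells was measured on 2-color Agilent 60-mer arrays, 1 array for each line. Per the file headers, Agilent Feature Extraction 10.7.3.1 subtracted background and normalized the dyes, and deposited spot intensity values and a log10 ratio of Cy5 over Cy3 with its error. The deposited log10 ratio was multiplied to the log2 scale and averaged over unflagged, non-control spots of a probe. The value table of the series held the same ratios. Where both channels are dim, the software can set the ratio to exactly 0.

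Of 42405 probes, 28423 (67.0%) were matched to 20514 RefSeq genes, and 24978 probes well above background in a channel of both arrays were tested. A gene stands for its brightest tested probe. limma 3.58.1 in R 4.3.3 was fitted over the 16 arrays of the design, 1 coefficient for each treatment, and p-values of the 24978 probes were adjusted by Benjamini-Hochberg (called under 0.05). The single arrays are assumed to vary like the other treatments, and p-values measure the spread between these arrays only. Arrays of the same treatment hold different cell lines, so this spread is between lines and not between replicates. The number of arrays limits the precision.

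Named genes were all laminin and receptor genes, the 10 highest and lowest in both lines and the first 5 of each opposite direction, ranked by the smaller absolute value, the 5 highest and lowest of 1 line only, all well above background in every channel, and list members past 0.5 the same way in both lines. A few genes that this rule names are not reported here. Other list members were named after their values were seen. The members and lists were chosen with earlier results of these data known. Alternatives were background correction, centring, a per-probe reference, filters on dim probes, the probe rule, the limit and the arrays in the fit. The models were tested on simulated data.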

Additional observations from a re-analysis of the deposited data

Results flagged for a closer look

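VSNL1, which encodes the calcium sensor visinin-like protein, was the only gene whose difference between the lines passed by limma. It was at 0.81 in FaDu and -2.77 in SAS, a difference of 3.58 (SE 0.257, adjusted p = 0.03). Its treated RNA in SAS was not well above background, so that it was there at least 4.88-fold lower. The ratio of VSNL1 was exactly 0 on 11 of the 14 arrays of other treatments. The spread of the test comes from those of the 14 arrays whose treatment has several arrays. Without miR-145 in LNCap the adjusted p of the difference was 0.16, and no probe passed when exact 0 values were left out.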

How the results depend on the processing

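Each log2 ratio pairs the si-LAMB3 RNA and the control RNA of the same line on 1 array, and there was 1 such pair for each line. With normexp, 674 genes were lower and 378 higher in both lines, 31 lower and 24 higher in FaDu only, 80 and 76 in SAS only, and 44 and 34 in opposite directions (FaDu higher, then FaDu lower). Without background subtraction 428 were higher in both, 34 and 29 past the limit in FaDu only, 94 and 69 in SAS only, and 60 and 47 opposite. Set against each probe's mean over other treatments, LAMB3 in SAS was at -1.12 and 640 genes were higher in both. Among genes well above background in every channel 642 were higher in both, 39 higher in FaDu only, 111 higher in SAS only, and 109 and 78 opposite. With no filter on dim probes 1890 were lower in both, 323 and 219 in FaDu only, 466 and 398 in SAS only, and 277 and 287 opposite. With a limit of 1.0 there were 250 and 237 in both lines, and 34 and 26 opposite. The cause of these changes was not tested.

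By limma 997 probes fell and 858 rose. With only the 2 si-LAMB3 arrays in the fit 0 and 0 were called (2230 and 2507 at an unadjusted p under 0.05), and with only the arrays of their slide, a setting chosen after seeing the data, 0 and 0 (2247 and 2519). Leaving out 1 si-LAMB3 array gave 120 to 399 lower and 77 to 314 higher probes, the fewest without SAS. Of 44 called named genes, 28 lost the call without FaDu and 33 without SAS. Against the mean over other treatments 489 and 230 were called, and with no filter 1521 lower. For FaDu minus SAS, 0 probes were lower and 1 higher (799 and 843 unadjusted), with no filter 249 and 243. The 1 call became 0 with normexp, without background subtraction, with every channel well above background, with the spread from wogonin and si-CAV2 only, and, in settings chosen after seeing the data, with exact 0 left out, the same slide only, or without miR-145 in LNCap.

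Against the mean over other treatments the interferon median was 0.37 in FaDu and turned to -0.14 in SAS, and the NF-kB median was -0.90 and 1.585. Other medians on that scale were 0.25 for focal adhesion in SAS, -1.03 for basal keratinocyte in SAS, 1.10 for keratinocyte differentiation in FaDu, -0.12 for YAP-TEAD and -0.88 for immediate early in FaDu, and -0.13 and -0.29 for S phase. They were -0.12 and 0.25 for chaperones, 0.0525 and -0.12 for cholesterol synthesis, 0.29 and 0.15 for glycolysis and hypoxia, 0.26 for proteases in SAS and -0.0039 for RNA interference in SAS. With normexp the interferon median was 1.10 and 0.41, the NF-kB median 1.14 in SAS, proteases 0.19 in SAS and immediate early -0.27 in FaDu. Without background subtraction interferon was 0.49, NF-kB 1.40 and proteases 0.24 in SAS. With every channel well above background the SAS medians were 0.58 for interferon, 1.625 for NF-kB, 0.38 for proteases, -0.48 for other laminins and -0.0028 for keratinocyte differentiation. With no filter they were -0.0014 for keratinocyte differentiation and 0.34 for proteases in SAS, -0.13 for proteases and 0 for YAP-TEAD in FaDu. With the mean of all probes the SAS medians were -0.45 for other laminins, 0.47 for YAP-TEAD and -0.11 for reference genes.

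Single genes that turned against the mean over other treatments were, in SAS, IFIT1 (-0.19), IFIT2 (-0.70), IFIT3 (-0.0861), IFIH1 (-0.0272), HERC5 (-0.54), HERC6 (-0.0737) and HSP90B1 (0.0191), and, in FaDu, ISG15 (-0.21) and USP18 (-0.0120). With the mean of all probes COL5A1 in FaDu (0.39) and H2AC6 in SAS (0.0866) turned.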

Other observations

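Of 6430 tested probes with no gene name here, 301 (4.68%) were below -0.5 in both lines and 560 (8.71%) above 0.5.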
